A study of Mus musculus with 4 samples.

Results

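Class 3 semaphorins are the secreted members of the semaphorin family of guidance proteins. The 10 genes described here are the 7 class 3 semaphorin genes (Sema3a, Sema3b, Sema3c, Sema3d, Sema3e, Sema3f and Sema3g), the neuropilin genes Nrp1 and Nrp2, and Plxnd1, which encodes plexin D1. They were chosen by gene symbol from the 53715 genes listed in the count matrices, and each symbol matched 1 row. The rule uses the symbols alone, but the family was picked with earlier results of these data known.

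Most class 3 semaphorins bind a neuropilin, which has a short cytoplasmic tail and passes the signal on through an A-type plexin or plexin D1, a receptor whose intracellular part acts on small GTPases and through them on the cytoskeleton. Sema3e is the known exception, since it binds plexin D1 directly. Neuropilins also bind vascular endothelial growth factors, and in blood and lymphatic vessels the family is known for steering growing sprouts, for valve formation and for repulsion between vessels and nerves.

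The nuclei came from inguinal white fat, a depot under the skin of the groin in which mouse mammary gland and a lymph node are embedded. All mice were C57BL/6N and 6 months old, and nuclear RNA was captured with a Singleron GEXSCOPE kit. The labels give 2 libraries as WT and 2 as PTRF knockout, each from its own mouse by title, where PTRF (cavin-1) is a protein that coats caveolae. The sources used here do not give whether the deletion affects every cell or adipocytes alone. Values per library stand in the order WT 1, WT 2, knockout 1, knockout 2, as labelled.

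The gene targeted by the knockout, Cavin1, went against the labels. Over all nuclei it had 40 and 9 UMIs (unique molecular identifiers, the count of captured transcripts) in the libraries labelled WT and 730 and 1759 in those labelled knockout. These are 1.81 and 1.04 CPM (counts scaled to an equal total of UMIs, the usual per-million scale) against 53.9 and 50.5. Every direction below therefore refers to libraries labelled knockout or WT, and the libraries labelled knockout are the ones with more Cavin1. The names under which the matrices were deposited also give each library the genotype opposite to its label. After filtering, the libraries held 15528, 6664, 11988 and 15887 nuclei with a median of 1022, 933.5, 844.5 and 1401 UMIs, and 47 to 143 cell barcodes occurred in both libraries of a pair. The libraries did not group by label: log CPM of WT 1 correlated with knockout 2 at 0.979 and of WT 2 with knockout 1 at 0.974, against 0.942 to 0.955 for the other pairs.

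The nuclei fell into 18 clusters in a clustering from which the 10 genes were left out. Classes are named by likeness to the markers of a cell type (adipocyte stands for adipocyte-like), and 2 clusters, numbers 3 and 15, stayed unnamed. The adipocyte class holds 1 cluster led by the haemoglobin genes Hba-a1 and Hba-a2. Progenitor nuclei formed 2 clusters, 1 rich in collagen transcripts (Col3a1, Col1a2, Col1a1) and 1 with Pi16 and Dpp4, called Pi16-type below. Endothelial nuclei were divided further, after the data had been seen, into a lymphatic subcluster (Prox1, Lyve1, Mmrn1, Reln, Flt4, Stab2; 156 nuclei), a blood vascular one with Lpl and Cxcl12 (790 nuclei) and one with Selp and Vwf (72 nuclei). This gives 19 types of nuclei, whose mean levels are shown in the map of all 10 genes.

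**Figure D1:**
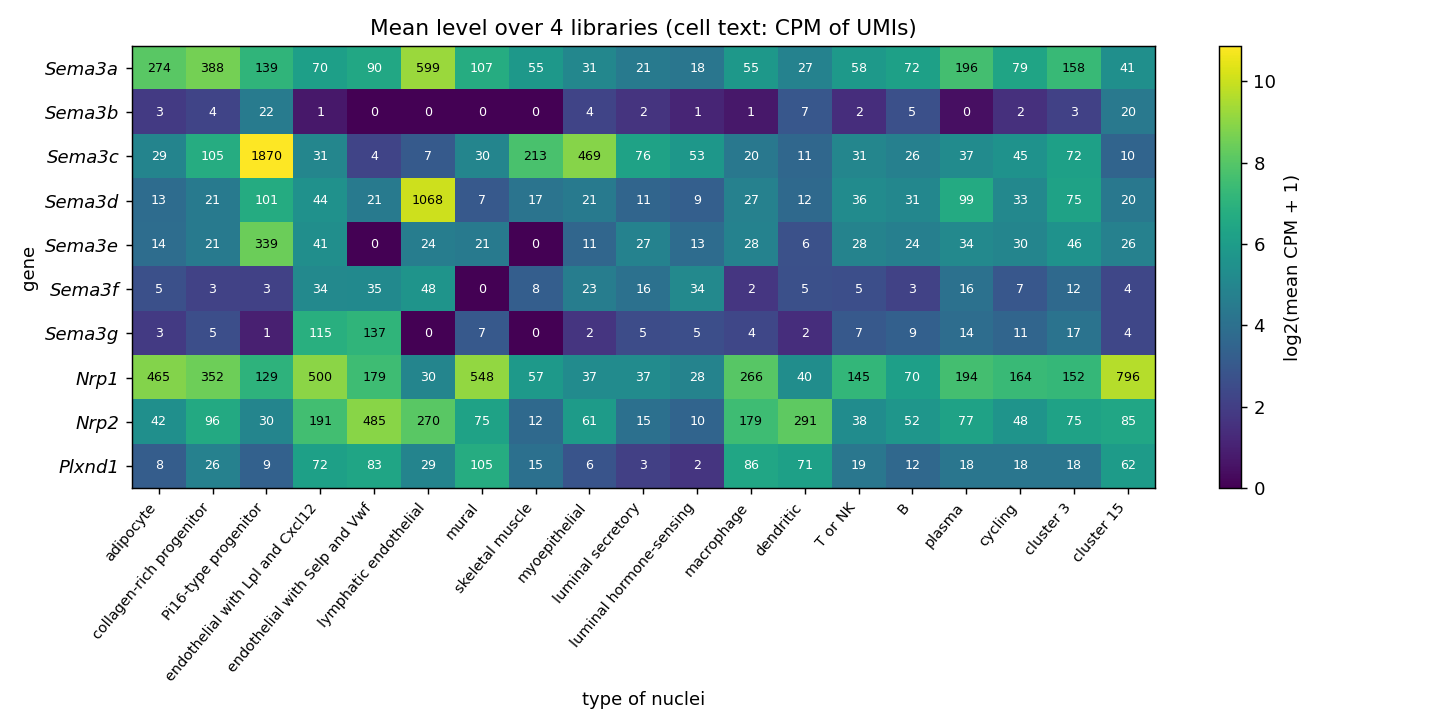
Mean level of each gene (rows) in each type of nuclei (columns), as CPM averaged over the 4 libraries and coloured on a log2(CPM + 1) scale. The highest cells are Sema3c in Pi16-type progenitors (1870 CPM) and Sema3d in lymphatic nuclei (1068 CPM), and colours should be compared along a row, since counts per nucleus also depend on gene length.

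The 5 semaphorin promoters printed here are those of the ligands described most closely below. By mean level, Sema3c and Sema3e were highest in Pi16-type progenitors, Sema3a and Sema3d in lymphatic nuclei, and Sema3g in blood vascular nuclei, although for Sema3a the range of lymphatic nuclei overlapped that of the next type. Sema3d, Sema3a, Sema3e and Sema3c lie in this order on the plus strand of chromosome 5, within 5.35 Mb from 12383385 to 17730268 (GRCm38, GENCODE M21), and Sema3g lies on the plus strand of chromosome 14 at chr14:31217860-31230352. Each sequence is the RefSeq window (build GRCm38.p6) of 250 bases before and 50 bases after the gene's start, 5′ to 3′ on the plus strand, at chr5:17574566-17574865 for Sema3c, chr5:14025026-14025325 for Sema3e, chr5:13396534-13396833 for Sema3a, chr5:12382916-12383215 for Sema3d and chr14:31217623-31217922 for Sema3g. Capitals mark any match, on either strand, to the TATA box (TATAAA), the CCAAT box (CCAAT), the GC box (GGGCGG), an AP-1 motif (TGANTCA), an ETS core (CCGGAA) or a GATA motif (AGATAA).
Sema3c: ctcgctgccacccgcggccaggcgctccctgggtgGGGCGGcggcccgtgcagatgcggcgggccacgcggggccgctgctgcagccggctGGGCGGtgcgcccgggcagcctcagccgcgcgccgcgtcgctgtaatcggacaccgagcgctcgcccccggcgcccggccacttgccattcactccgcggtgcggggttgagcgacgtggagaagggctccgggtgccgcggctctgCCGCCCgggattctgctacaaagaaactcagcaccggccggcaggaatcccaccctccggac
Sema3e: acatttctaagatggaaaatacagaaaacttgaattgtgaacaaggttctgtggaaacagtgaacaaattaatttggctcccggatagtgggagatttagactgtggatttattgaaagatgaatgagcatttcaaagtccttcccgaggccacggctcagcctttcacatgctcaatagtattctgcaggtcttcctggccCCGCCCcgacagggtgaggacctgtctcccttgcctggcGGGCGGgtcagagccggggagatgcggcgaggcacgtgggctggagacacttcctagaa
Sema3a: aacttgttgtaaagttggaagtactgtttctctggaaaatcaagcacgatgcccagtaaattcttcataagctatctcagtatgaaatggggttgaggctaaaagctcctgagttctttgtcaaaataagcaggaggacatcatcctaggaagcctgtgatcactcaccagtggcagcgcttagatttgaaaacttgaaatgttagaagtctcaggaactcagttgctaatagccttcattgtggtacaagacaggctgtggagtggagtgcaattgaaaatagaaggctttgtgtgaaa
Sema3d: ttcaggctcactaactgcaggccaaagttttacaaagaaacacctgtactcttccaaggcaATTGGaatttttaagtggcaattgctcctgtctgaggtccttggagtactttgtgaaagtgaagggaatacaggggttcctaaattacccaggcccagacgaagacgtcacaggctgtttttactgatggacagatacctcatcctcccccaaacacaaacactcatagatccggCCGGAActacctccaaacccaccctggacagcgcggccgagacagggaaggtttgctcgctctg
Sema3g: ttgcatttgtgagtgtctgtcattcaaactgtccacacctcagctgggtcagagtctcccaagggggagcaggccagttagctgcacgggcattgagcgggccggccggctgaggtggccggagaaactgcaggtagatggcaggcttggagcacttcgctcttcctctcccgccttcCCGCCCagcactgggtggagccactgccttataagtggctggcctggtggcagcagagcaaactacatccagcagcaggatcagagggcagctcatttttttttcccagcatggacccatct

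The Sema3c window held 3 matches to the GC box, that of Sema3e 2 and that of Sema3g 1, and 35.7% of 32851 promoter windows hold this motif. Sema3d had 1 match to the CCAAT box, present in 37.4% of windows, and 1 to the ETS core, present in 14.9%. The Sema3a window had no match to any of the 6 motifs, of which the TATA box, the AP-1 motif and the GATA motif occur in 13.6%, 7.8% and 11.2% of windows. No 2 matches overlapped in these 5 windows. The GC content was 75.7% for Sema3c, 50.7% for Sema3e, 41.3% for Sema3a, 49.7% for Sema3d and 58.7% for Sema3g, with a median of 52.7% over all windows. The RefSeq window of Sema3a lies inside the longer GENCODE gene (chr5:13125414-13602565), and that of Sema3d ends before the GENCODE gene begins (chr5:12383385-12588948). Of the 10 genes, 8 had a RefSeq promoter window.

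Sema3c, a secreted guidance ligand that signals through both neuropilins, stood at 1659, 1818, 2075 and 1926 CPM in Pi16-type progenitors, a mean of 1870 ± 176 (SD, n = 4 libraries). All 4 libraries were close together there, and each was at least 12.5 times above the collagen-rich progenitors of the same library, where Sema3c was at 67.0, 105, 92.8 and 154 CPM. The Pi16-type nuclei were 2.68% of all nuclei and held 4137 of 10079 Sema3c UMIs (41.0%).

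The myoepithelial nuclei of the mammary gland came second for Sema3c, with 529, 289, 425 and 633 CPM, and held 24.4% of its UMIs. Their range lay wholly below that of Pi16-type progenitors and above that of skeletal muscle nuclei (213 ± 47.9 CPM, 138 nuclei in all), which came next. From the fourth place down, starting with collagen-rich progenitors, the ranges of neighbouring types overlapped. A Sema3c UMI was found in 64.2% of Pi16-type nuclei (median 1294 UMIs) and in 1.96% of B nuclei (median 839 UMIs), a type taken here as the level of free RNA. With every nucleus thinned to 500 UMIs, the shares were 43.8% and 1.18%.

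Sema3e, the ligand of plexin D1, shared the Pi16-type cluster as its highest type but varied far more between libraries. Its levels there were 597, 418, 74.9 and 266 CPM from 417, 162, 7 and 287 UMIs, a mean of 339 ± 222. The library labelled knockout 1, with 92 Pi16-type nuclei, was the lowest. In each library the Pi16-type nuclei were above collagen-rich progenitors, by 2.68 to 37.7 times, and they held 89.8% of the progenitor class's Sema3e UMIs. All other types had mean levels of at most 45.6 CPM. The next, cluster 3, lay wholly below (36.8 to 50.8 CPM), but single libraries of plasma, lymphatic and Lpl-type endothelial nuclei, each from at most 8 UMIs, reached 76.1 to 87.4 CPM.

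Sema3b, whose product competes with vascular endothelial growth factor for neuropilins, was scarce, with 227 UMIs in all nuclei. Of these, 51 were in Pi16-type progenitors (22.3 ± 2.35 CPM), and the range there overlapped that of cluster 15 (20.1 ± 10.7 CPM). Within the progenitor class, Pi16-type nuclei held 75.0% of Sema3b UMIs, 69.6% of those of Sema3d and 85.8% of those of Sema3c, but 297 of 2692 UMIs of Sema3a.

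Sema3a, the founding member of the class and a repellent for axons, took the opposite side of the progenitor class. Collagen-rich progenitors were at 339, 315, 399 and 498 CPM and Pi16-type progenitors at 133, 134, 160 and 127 CPM, so the ranges were apart and the ratio ran from 2.35 to 3.93. Adipocytes had 530, 227, 149 and 191 CPM, and they held 50.3% of all Sema3a UMIs, while collagen-rich progenitors held 20.5%. The library labelled WT 1 was far above the other 3 in adipocytes, and the adipocyte and collagen-rich ranges overlapped.

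The highest mean of Sema3a belonged to lymphatic nuclei, with 1074, 699, 213 and 411 CPM from 144, 32, 1 and 28 UMIs. That range overlapped that of collagen-rich progenitors, and the lymphatic nuclei of knockout 1 numbered 5. Blood vascular nuclei with Lpl and Cxcl12 had 51.3, 62.4, 62.8 and 102 CPM, below the lymphatic nuclei in each library.

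Sema3d was highest in lymphatic nuclei. Its levels there were 1260, 1398, 852 and 764 CPM (mean 1068 ± 309), and the lowest of these lay above every value of any other type. Blood vascular nuclei with Lpl and Cxcl12 had 25.7, 83.2, 48.3 and 17.4 CPM, so that the lymphatic level was 16.8 to 49.1 times higher within a library. A Sema3d UMI was present in 57.0% of lymphatic nuclei (median 1355.5 UMIs) and in 2.29% of B nuclei, and in 30.9% and 1.58% after thinning to 500 UMIs. Pi16-type progenitors came next (101 ± 21.4 CPM), with a range overlapping that of plasma nuclei (99.4 ± 49.1 CPM).

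Sema3g, a ligand known from arterial endothelium, was found in blood vascular nuclei. Those with Lpl and Cxcl12 had 116, 125, 77.3 and 144 CPM, and the range lay above that of each type other than the nuclei with Selp and Vwf. The latter ranged from 0 to 408 CPM over 72 nuclei, and their 33 UMIs came mostly from knockout 2, with 28. Lymphatic nuclei had 0 Sema3g UMIs among 252659, which allows a level of up to 11.9 CPM (3 counts over all libraries, counting error only).

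Sema3f, which binds mainly neuropilin 2, was low everywhere. Its highest means were in lymphatic nuclei (47.9 ± 32.1 CPM, 16 UMIs), both groups of blood vascular nuclei (34.6 ± 23.2 and 33.9 ± 13.5 CPM) and hormone-sensing luminal nuclei (33.8 ± 9.92 CPM, 150 UMIs), in this order, with neighbouring ranges overlapping throughout.

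**Figure D2:**
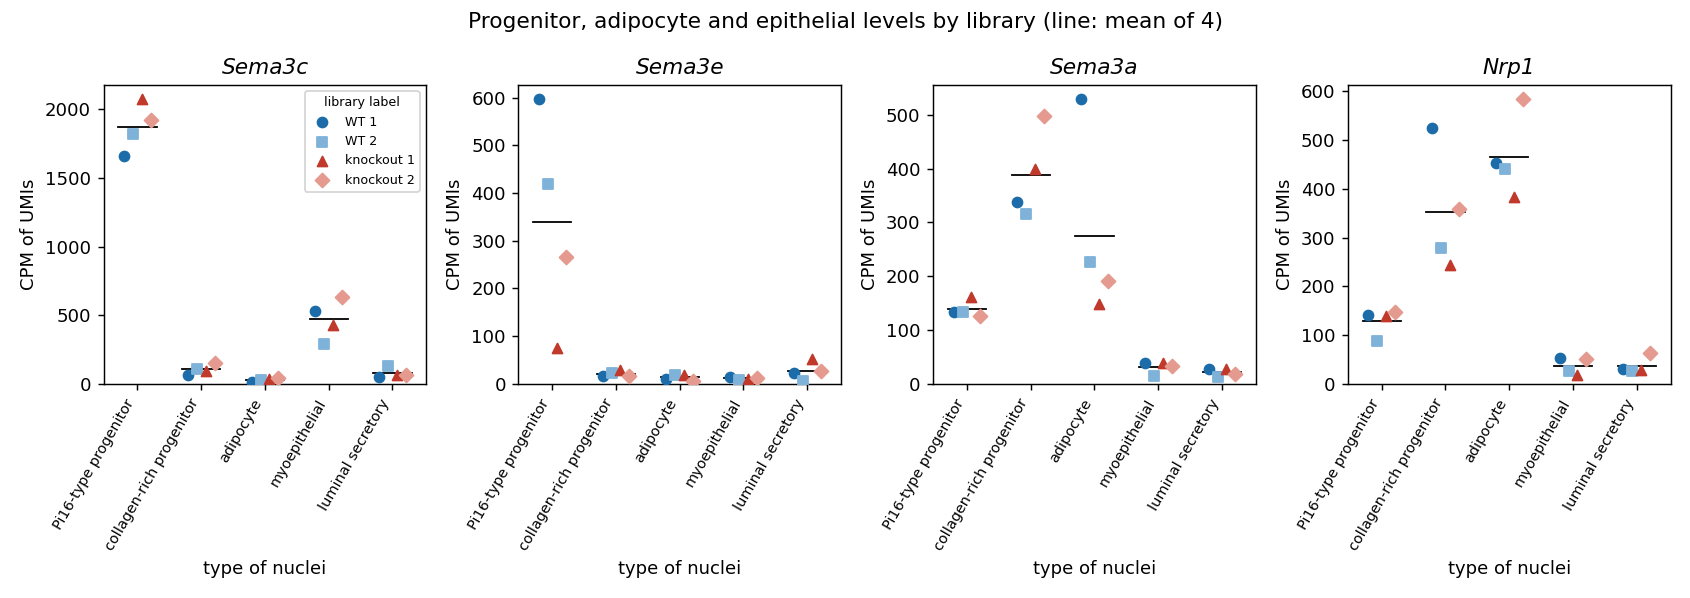
Levels of Sema3c, Sema3e, Sema3a and Nrp1 in progenitor, adipocyte and mammary epithelial types; each point is 1 library, the vertical axis is CPM from 0, and the line is the mean of 4 libraries. Sema3c sits between 1659 and 2075 CPM in Pi16-type progenitors in all 4 libraries, whereas Sema3e runs there from 74.9 to 597 CPM and Sema3a is higher in collagen-rich progenitors.

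Among the receptors, Nrp1, which binds class 3 semaphorins and vascular endothelial growth factor, stood at 453, 441, 383 and 585 CPM in adipocytes, which held 10349 of its 18875 UMIs. Its highest mean was in the unnamed cluster 15, with 1295, 516, 247 and 1129 CPM, followed by mural nuclei (548 ± 114 CPM), blood vascular nuclei with Lpl and Cxcl12 (501 ± 175 CPM), adipocytes (465 ± 85.4 CPM), collagen-rich progenitors (352 ± 126 CPM) and macrophages (266 ± 42.1 CPM). Each range in this order overlapped the next. Collagen-rich progenitors exceeded Pi16-type progenitors (129 ± 27.7 CPM) in each library, by 1.75 to 3.75 times.

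Nrp2, the neuropilin known from veins and lymphatics, had its highest mean in endothelial nuclei with Selp and Vwf, at 422, 671, 367 and 480 CPM. These were 2.00 to 3.62 times above the nuclei with Lpl and Cxcl12 of the same library. Dendritic nuclei had 266, 264, 157 and 478 CPM, lymphatic nuclei 224, 131, 213 and 514 CPM, and macrophages 127, 176, 179 and 234 CPM. The ranges of these types overlapped. The neuropilins parted in endothelial and myeloid nuclei: Nrp1 was at 89.5, 0, 0 and 29.4 CPM in lymphatic nuclei (14 UMIs) while Nrp2 had 72 UMIs there, and Nrp1 was 5.49 to 8.09 times higher in macrophages than in dendritic nuclei (36.5, 33.0, 37.8 and 51.4 CPM), where Nrp2 was higher than in macrophages in 3 of 4 libraries.

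Plxnd1, the receptor of Sema3e and a partner of neuropilins, was low but followed the vascular and myeloid types. Macrophages had 102, 84.6, 57.2 and 99.1 CPM, dendritic nuclei 53.7, 57.1, 107 and 64.3 CPM, blood vascular nuclei with Lpl and Cxcl12 25.7, 52.0, 91.8 and 117 CPM, and mural nuclei 105 ± 74.0 CPM from 19 UMIs. Their ranges overlapped. Pi16-type progenitors, the type with most Sema3e, had 15 Plxnd1 UMIs (9.40 ± 8.24 CPM).

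**Figure D3:**
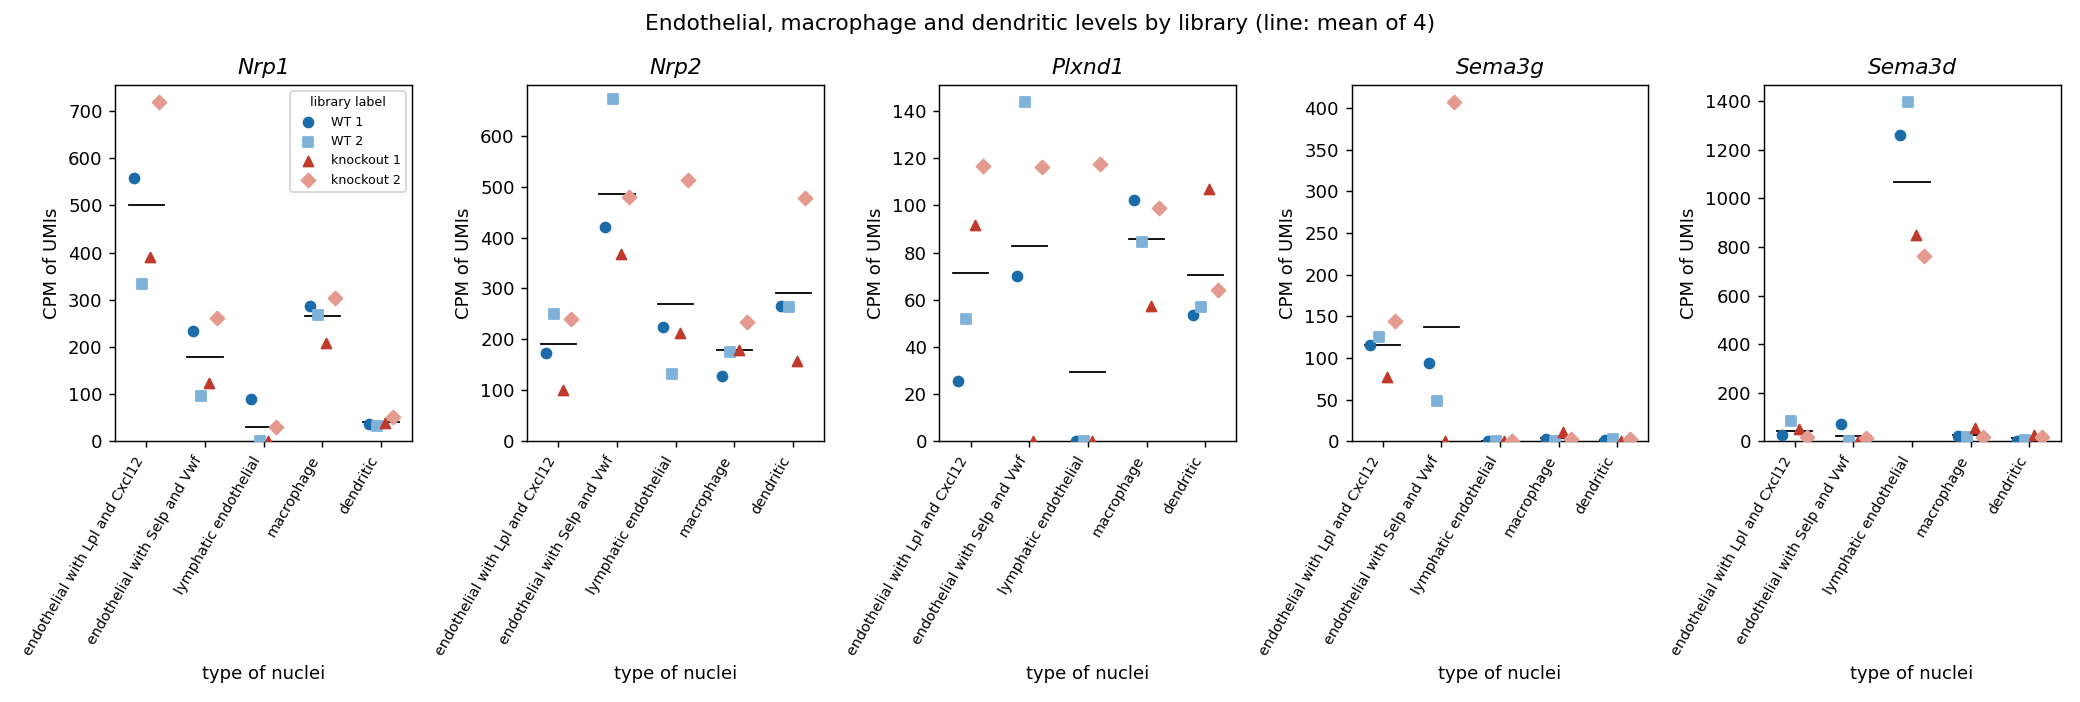
Levels of Nrp1, Nrp2, Plxnd1, Sema3g and Sema3d in endothelial subclusters, macrophages and dendritic nuclei; each point is 1 library, the vertical axis is CPM from 0, and the line is the mean of 4 libraries. Sema3d lies between 764 and 1398 CPM in lymphatic nuclei and Sema3g at 0 there, and Nrp1 reaches at most 89.5 CPM in lymphatic and dendritic nuclei, where Nrp2 starts at 131 CPM.

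The differences between classes were tested on UMI sums of 12 classes that had at least 50 nuclei in each library, each class against the mean of the other 11, with the library as a block (edgeR's quasi-likelihood test, adjusted p under 0.05 over all genes tested). The clusters come from the same nuclei, though the genes described here were left out of the clustering. Over all classes 35.7% of gene and class pairs were called (74063 of 207216), 19.4% in the higher direction. Of 108 pairs of the 9 genes tested, 58 were called, 27 of them higher. Sema3b was too low to be tested. The classes were not divided as finely as the types above, so the endothelial class holds blood and lymphatic nuclei together.

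In the endothelial class 7 of the 9 genes were called higher, against 8.16% of all genes higher and 12.4% called, with a median log2 difference of 2.01 against -0.08 over all genes. The largest were Sema3g at 4.26 (SE 0.28, adjusted p = 1.05e-22) and Sema3d at 3.52 (SE 0.26, adjusted p = 1.03e-14), which was 1.21 (SE 0.24, still called) at Leiden resolution 2, and only Sema3c was called lower, at -1.25 (SE 0.38, adjusted p = 0.0224). The progenitor class had 5 genes called higher, against 15.4% of all genes higher and 24.4% called. They were Sema3c at 4.06 (SE 0.17), Sema3e at 3.11 (SE 0.28), Sema3a at 2.58 (SE 0.19), Nrp1 at 1.58 (SE 0.14) and Sema3d at 1.04 (SE 0.27). Sema3f was lower there, at -1.08 (SE 0.38, adjusted p = 0.0282).

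Adipocytes had Nrp1 (2.63, SE 0.12) and Sema3a (2.47, SE 0.18) called higher, against 23.8% of all genes higher and 42.4% called in either direction, and Sema3d (-0.79, SE 0.31) and Plxnd1 (-0.68, SE 0.24) called lower. Macrophages had Plxnd1 (2.73, SE 0.20), Nrp2 (1.72, SE 0.23) and Nrp1 (1.33, SE 0.15) called higher, against 13.7% of all genes higher and 21.2% called, and Sema3f (-2.58, SE 0.59) and Sema3c (-1.72, SE 0.35) called lower. In dendritic nuclei, where 15.2% of genes were higher and 29.6% called, Nrp2 (2.88, SE 0.22) and Plxnd1 (2.61, SE 0.25) were higher and 5 genes were lower: Nrp1 (-1.33, SE 0.23, adjusted p = 1.87e-06), Sema3e (-2.51), Sema3c (-1.87), Sema3d (-1.49) and Sema3a (-1.22). Myoepithelial nuclei had Sema3c at 3.65 (SE 0.18) and Sema3f at 1.68 (SE 0.29) called higher, against 18.5% of all genes higher and 33.0% called, and Nrp1 (-1.55), Sema3a (-1.05) and Plxnd1 (-0.98) called lower. Hormone-sensing luminal nuclei had Sema3f called higher (2.43, SE 0.25), against 30.9% of all genes higher and 61.7% called, and 5 lower, which were Plxnd1 (-2.94), Nrp2 (-2.57), Nrp1 (-2.01), Sema3a (-1.89) and Sema3d (-1.49). Secretory luminal nuclei had Sema3f (1.02, SE 0.27) and Sema3c (0.71, SE 0.22) called higher and 5 genes lower, where 29.2% of genes were higher and 54.4% called. The unnamed cluster 3 had Sema3d (0.97, SE 0.26), Sema3g (0.93, SE 0.30) and Sema3a (0.64, SE 0.22) called higher, where 31.6% of genes were higher and 65.8% called. In B, T or NK and cycling nuclei 0 of the 9 genes were called higher, against 17.9%, 17.9% and 10.5% of all genes, and 4, 3 and 0 were called lower, where 34.0%, 31.6% and 18.2% of genes were called in either direction.

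The remaining genes of the pathway were taken from lists that do not hold the 10 genes. Of 8 further plexins, 6 were called higher in macrophages, with a median log2 difference of 1.17 against -0.01 over all genes, of which 13.7% were called higher there. They included Plxnc1 (1.88, SE 0.15), the receptor of Sema7a, and the A-type plexins Plxna1 (1.69, SE 0.25) and Plxna4 (1.49, SE 0.20), and none was called lower. In the endothelial class Plxna2 (2.95, SE 0.17) and Plxna4 (2.76, SE 0.19) were called higher and Plxnc1 lower (-0.75, SE 0.26). Myoepithelial nuclei had 4 of the 8 called higher (Plxnb1, Plxna3, Plxnb2 and Plxna1) and 1 lower, against 18.5% of all genes higher. Hormone-sensing luminal nuclei had the same 4 higher and 4 lower, against 30.9% higher. Secretory luminal nuclei had 3 higher and 3 lower, against 29.2% higher. Of 14 tested neuropilin ligands and co-receptors, 5 were higher in endothelial nuclei, against 8.16% of all genes, among them the vascular endothelial growth factor receptor genes Kdr (5.50, SE 0.24), Flt4 (4.93, SE 0.25) and Flt1 (4.08, SE 0.14). Kdr and Flt1 were among the markers that named this class, and Flt4 among those that named its lymphatic subcluster. Their higher level there was therefore set in advance. The genes of these lists were not left out of the clustering.

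Of 5 proteases that cleave semaphorins, 3 were called higher in progenitors, against 15.4% of all genes: the proprotein convertases Pcsk6 (2.48, SE 0.22) and Pcsk5 (2.01, SE 0.17) and the metalloprotease Adamts1 (1.66, SE 0.25). In myoepithelial nuclei 3 of the 5 were called higher too, namely Adamts1 (3.61, SE 0.21), Pcsk5 (2.18, SE 0.17) and Pcsk7 (0.73, SE 0.16). Of 13 semaphorins of other classes, 7 were higher in myoepithelial nuclei, against 18.5% of all genes, including the transmembrane Sema6d (3.01, SE 0.14), Sema6a (2.37, SE 0.19) and Sema5a (2.35, SE 0.16), and 3 were lower. Of 24 tested genes of the signalling below plexins, 8 were higher in myoepithelial nuclei, led by Mical2 and Dpysl3, and 0 were lower. In macrophages 7 were higher and 3 lower, against 13.7% of all genes higher. In dendritic nuclei 6 were higher and 4 lower, against 15.2% higher. In hormone-sensing luminal nuclei 7 were higher and 6 lower, and the count of higher genes was near the 30.9% of all genes.

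Across the 12 class means, the patterns most like that of each gene were sought among 13384 genes with at least 20 CPM in some class, as Pearson correlation of log2(CPM + 1). These are descriptions over 12 points that share the 4 libraries. Sema3c was closest to Osr1 (r = 0.979), Adamtsl4 (0.948) and Fst (0.936), and Sema3a to Meis2 (0.978), Gata6 (0.970) and Abi3bp (0.969). Sema3e was closest to Smoc2 (0.939), Efhd1 (0.938) and Sult5a1 (0.938), and Sema3g to Pkhd1l1 (0.955), Ptprb (0.951) and 4930578C19Rik (0.950). Nrp1 was closest to Nr1h3 (0.927), Igf1 (0.925) and Igfbp4 (0.920). Plxnd1 and Nrp2 were among each other's 3 closest genes (r = 0.930), beside Gm38399 and, for Nrp2, Zbtb46 (0.936), a transcription factor gene of dendritic cells and endothelium. Sema3d was closest to D5Ertd615e (0.974), 4930428N03Rik (0.970) and Vwa3a (0.968), and Sema3f to Tm4sf1 (0.937), Clca3a1 (0.930) and Galnt18 (0.928). The endothelial class pools blood and lymphatic nuclei, so a likeness between classes need not hold within it. Vwa3a was among the 12 leading genes of the nuclei with Lpl and Cxcl12, where Sema3d was far lower than in lymphatic nuclei. Pkhd1l1 was among those of the lymphatic nuclei, where Sema3g had 0 UMIs.

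Over all nuclei, no difference between the labels passed the test. All 10 genes were tested, and edgeR called 0 of them, against 0.103% of all genes (29 of 28075). DESeq2 also called 0, and 0 had an unadjusted p under 0.05. Sema3b did not overlap between the labels, at 4.07 and 3.94 against 2.66 and 1.92 CPM. With 2 libraries per label, a lack of overlap often arises without any label effect, here and in the classes below. How many of all genes show it was not counted. The log2 differences, labelled knockout minus labelled WT, ran from -0.84 (SE 0.58) for Sema3b to 0.34 (SE 0.51) for Sema3g, with a median of -0.14 against 0.02 over all genes. Sema3c stood at 114, 150, 74.3 and 151 CPM over all nuclei and Nrp1 at 226, 169, 166 and 292 CPM, so the groups overlapped for both. Such sums cannot tell fewer nuclei of a type from less RNA per nucleus, and the clusters took different shares of each library: cluster 3 held 6.79% and 30.2% of nuclei in the libraries labelled WT and 30.4% and 13.6% in those labelled knockout. The part of these shares in the values was not tested.

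Within the 12 classes, 2 of 88 tested gene and class pairs were called, against 0.142% of all gene and class pairs, and 9 had an unadjusted p under 0.05. These 9 were 4 of 8 in endothelial nuclei (503 of 6094 among all genes) and 2 of 10 in adipocytes (710 of 17890). The rest were 2 of 8 in progenitors (473 of 12815) and 1 of 5 in cycling nuclei (101 of 8006). Both calls were in endothelial nuclei, where 1.36% of genes were called (83 of 6094). DESeq2 called 2 pairs as well, of which Sema3d in endothelial nuclei was shared and Sema3e in progenitors was the other.

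Sema3d had 529 and 442 CPM in endothelial nuclei of the libraries labelled WT, against 63.7 and 111 CPM under the knockout label, and the groups were far apart. It fell, with a log2 difference of -2.47 (SE 0.38, adjusted p = 8.57e-05). Sema3a had 460 and 240 CPM against 72.8 and 133 CPM and fell too, by 1.78 on the log2 scale (SE 0.38, adjusted p = 0.00562). The call for Sema3a was lost without the library labelled WT 1 (-1.23, adjusted p = 0.656), with DESeq2 (-1.80, adjusted p = 0.164) and with no filter on low counts (-1.74, adjusted p = 0.326). Both calls were lost at Leiden resolution 2, with Sema3d at -0.85 and Sema3a at -0.08.

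The share of lymphatic nuclei in the endothelial class moved with both genes. It was 30.7% and 21.6% in the libraries labelled WT and 2.08% and 8.38% in those labelled knockout. The 8 lymphatic markers summed to 4606 and 2009 CPM in the class against 350 and 1195 CPM, and all 8 had UMIs in both groups, with 0 to 2 UMIs per library for Ccl21a. Stab2 alone was highest in a library labelled knockout (219 CPM in knockout 2). Lymphatic nuclei supplied 289 of the 322 Sema3d UMIs of the class (89.8%) and 205 of the 280 Sema3a UMIs (73.2%).

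With the lymphatic subcluster left out, an alternative chosen after seeing the data, neither gene was called. Sema3a was then at 45.3 and 59.8 CPM against 69.7 and 93.3 CPM, a log2 difference of 0.65 (SE 0.56, adjusted p = 0.999), and 0.124% of genes were called. Sema3d was at 35.3 and 68.4 CPM against 46.5 and 17.0 CPM and was below the filter on low counts. The lymphatic markers then summed to 202 and 265 CPM against 172 and 176 CPM. Within the lymphatic nuclei alone, Sema3d was at 1260 and 1398 CPM in the libraries labelled WT and at 852 and 764 CPM in those labelled knockout. These levels came from 169, 64, 4 and 52 UMIs, and the difference was not tested. The Sema3a levels of lymphatic nuclei given above were also lower in both libraries labelled knockout, with few UMIs in knockout 1. That difference was not tested either.

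**Figure D4:**
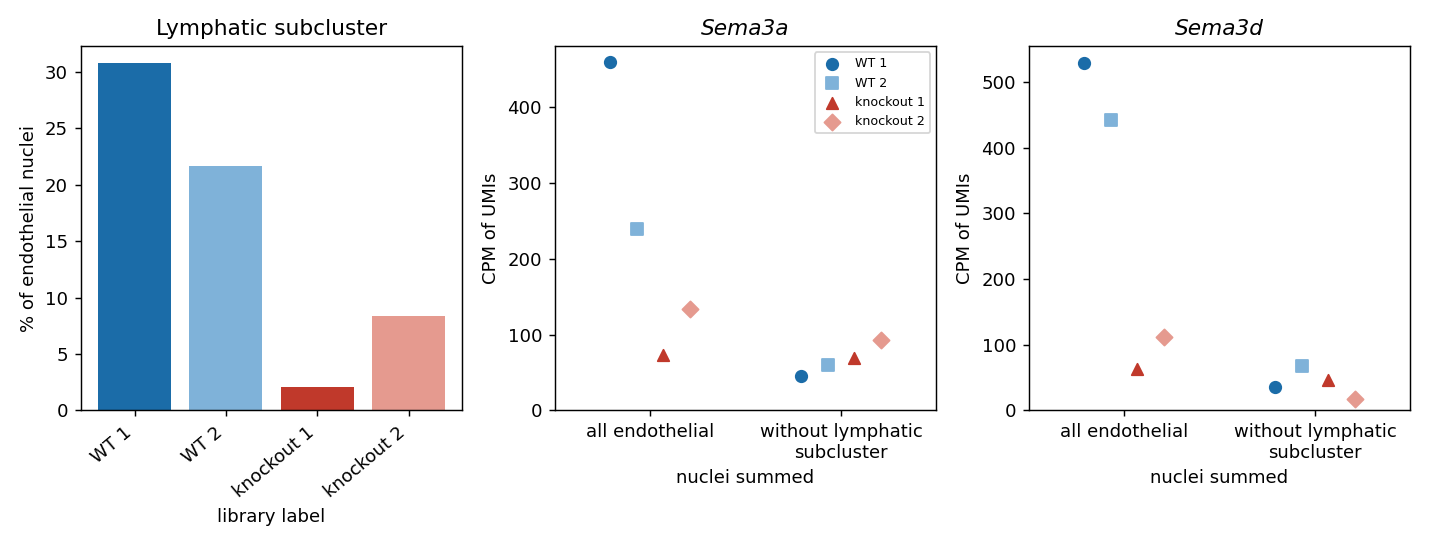
Left, the lymphatic subcluster as a percentage of endothelial nuclei in each library; middle and right, Sema3a and Sema3d in CPM summed over all endothelial nuclei and over those without the lymphatic subcluster, 1 point per library. The libraries labelled WT are above those labelled knockout in the whole class, and without the lymphatic subcluster all 4 libraries lie at or below 93.3 CPM.

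The receptors in endothelial nuclei did not pass the test. Plxnd1 was at 21.0 and 49.2 CPM against 86.4 and 117 CPM, which do not overlap (log2 1.62, SE 0.57, adjusted p = 0.208). Without the lymphatic subcluster the values were 35.3 and 68.4 CPM against 88.3 and 117 CPM (log2 1.04, SE 0.56, adjusted p = 0.999). Nrp1 was at 328 and 209 CPM against 373 and 574 CPM (0.76, SE 0.37, adjusted p = 0.581), and the groups overlapped once lymphatic nuclei were left out, at 489 and 291 CPM against 381 and 653 CPM. Sema3g (66.1 and 79.9 against 72.8 and 159 CPM) and Nrp2 (226 and 270 against 114 and 306 CPM) overlapped between the labels.

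In progenitors Sema3e was at 245 and 193 CPM in the libraries labelled WT and at 33.7 and 78.9 CPM in those labelled knockout, with no overlap. Its log2 difference of -1.94 (SE 0.38) had an adjusted p of 0.246, where 0.0156% of genes were called. It was called in 7 of 15 alternatives, among them DESeq2 (-1.97, adjusted p = 0.0102) and no filter on low counts (-1.92, adjusted p = 0.00448). The 7 also include each fit without 1 library (-2.80 to -1.51), which leaves a single library under 1 label. Sema3e was not called with the replicate number as a block, at either other Leiden resolution or with the described genes kept in clustering. Nor was Sema3e called with a higher cut on UMIs and genes, without the highest doublet scores or in either progenitor cluster alone. The share of Pi16-type nuclei among progenitors moved with it, at 35.5% and 36.0% against 12.3% and 27.2%, and its part in the Sema3e values was not tested. In the class Pi16 itself was at 260 and 437 CPM against 66.0 and 160.5 CPM. Dpp4 was at 528 and 443.5 CPM against 162 and 431 CPM.

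Inside the Pi16-type cluster Sema3e still had a log2 difference of -1.47 (SE 0.48, unadjusted p = 0.0079, adjusted p = 0.9997), from the 597 and 418 against 74.9 and 266 CPM given above, and 0.0367% of genes were called. In the collagen-rich cluster the difference was 0.09 (SE 0.54), from 15.8 and 23.3 against 28.0 and 15.9 CPM, and 0.0277% of genes were called.

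Sema3c showed another pattern in the same nuclei. Over the progenitor class it was at 694 and 842 CPM against 333 and 600 CPM, groups that do not overlap (log2 -0.77, SE 0.36, adjusted p = 0.999). The sign turned within each cluster, to 0.12 (SE 0.48) in Pi16-type and 0.53 (SE 0.35) in collagen-rich progenitors. Sema3d in progenitors was at 65.4 and 57.7 CPM against 29.8 and 33.6 CPM (-1.01, SE 0.32, adjusted p = 0.910), and its differences within the clusters were -0.50 (SE 0.41) and -0.42 (SE 0.50). Sema3a was not called, at 258 and 237 CPM against 370 and 405 CPM (0.58, SE 0.28, adjusted p = 0.999). Within the clusters Sema3a differed by -0.02 (SE 0.38) and 0.42 (SE 0.28).

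In adipocytes, where 0.369% of genes were called, Sema3a was at 530 and 227 CPM against 149 and 191 CPM (log2 -1.17, SE 0.42, unadjusted p = 0.00717, adjusted p = 0.462). The difference shrank to -0.36 (SE 0.60) without the library labelled WT 1. Sema3c was at 14.9 and 25.8 CPM against 36.1 and 40.5 CPM (0.96, SE 0.41, adjusted p = 0.847), with no overlap. The cluster led by haemoglobin genes held 19.2% and 1.77% of adipocyte nuclei in the libraries labelled WT and 0.95% and 14.1% in those labelled knockout, and without it the differences were -1.23 (SE 0.44) for Sema3a and 1.0035 (SE 0.43) for Sema3c, and 0.396% of genes were called. Nrp1 overlapped between the labels, with a log2 difference of 0.13 (SE 0.43).

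**Figure D5:**
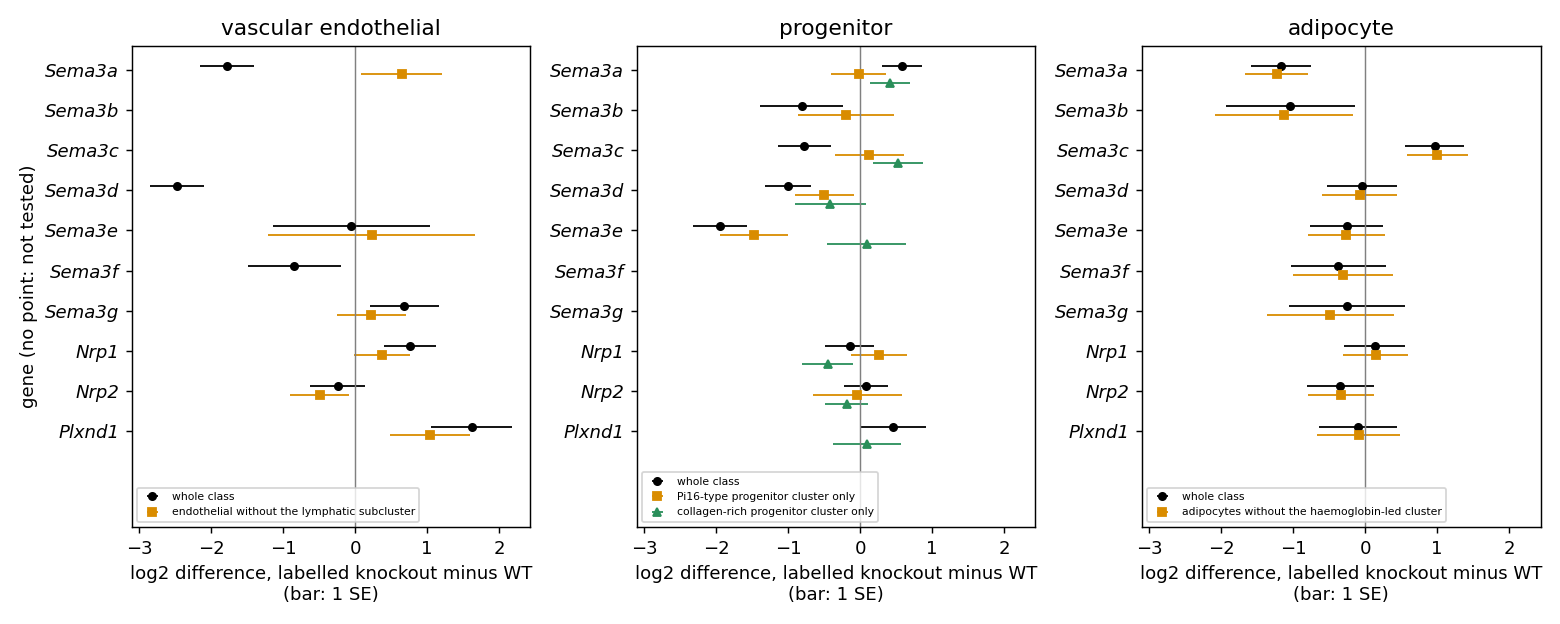
Log2 differences between labels (labelled knockout minus labelled WT; bars are 1 SE from edgeR, n = 2 libraries per label) for each gene in endothelial, progenitor and adipocyte nuclei. Black points are whole classes and coloured points leave out or keep single clusters: Sema3a in endothelial nuclei moves from -1.78 to 0.65 without the lymphatic subcluster, and Sema3c in progenitors from -0.77 to 0.12 and 0.53 within the 2 clusters.

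The label difference was compared directly between adipocytes and progenitors, as the interaction of class and label with the library as a block. Of 9 genes tested, 0 were called by edgeR, against 0.071% of all genes (12 of 16904), while 2 had an unadjusted p under 0.05 and DESeq2 called 2, the same 2. Sema3c differed by 1.78 (SE 0.32, adjusted p = 0.0674), and it was called in 9 of 13 alternatives. Set against collagen-rich progenitors only, the difference was 0.38 (SE 0.35, adjusted p = 0.994). That fit leaves out the Pi16-type cluster, which held 85.8% of the progenitor class's Sema3c UMIs. Sema3a differed by -1.66 (SE 0.35, adjusted p = 0.142), was called in 4 of 13 alternatives, and against collagen-rich progenitors only it was -1.55 (SE 0.34, adjusted p = 0.0941).

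In the other 9 classes 0 of the tested genes were called with all 4 libraries by edgeR or by DESeq2, against 0.158% of all genes in cluster 3, 0.0891% in dendritic, 0.0467% in T or NK, 0.0371% in myoepithelial, 0.036% in B, 0.0126% in secretory luminal, 0.0125% in cycling, 0.0111% in macrophage and 0.0% in hormone-sensing luminal nuclei, and 1 pair, Sema3c in cycling nuclei, had an unadjusted p under 0.05, at 63.5 and 68.4 CPM against 21.9 and 28.1 CPM (log2 -1.38, SE 0.61, adjusted p = 0.9998, 71 UMIs). Without the library labelled WT 1, Sema3e (2.68, SE 0.62, adjusted p = 0.00144) and Sema3c (-1.21, SE 0.29, adjusted p = 0.00260) were called in secretory luminal nuclei, where the single library left on the WT side was the lowest of 4 for Sema3e (5.74 CPM against 21.7, 52.9 and 27.3 CPM) and the highest for Sema3c (133 CPM against 47.2, 61.6 and 62.3 CPM).

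The pathway lists held no gene that was called between labels over all nuclei or in the endothelial, progenitor or adipocyte class. Over all nuclei 8 plexins, 13 further semaphorins, 14 neuropilin ligands and co-receptors, 25 genes of signalling below plexins and 5 proteases were tested, and 0 of these had an unadjusted p under 0.05. Endothelial nuclei had such values for 2 of 5 semaphorins, 2 of 9 ligands and co-receptors, 2 of 15 signalling genes and 1 of 5 proteases (503 of 6094 genes in all). Adipocytes had them for 1 of 12, 2 of 14, 1 of 23 and 1 of 5 (710 of 17890 genes), and progenitors for 1 of 5 proteases alone (473 of 12815 genes). Median log2 differences were 0.08 for the plexins, -0.11 for the semaphorins and 0.13 for the ligands and co-receptors, against 0.02 over all genes.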

How the data were processed

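The values are raw UMI counts per gene and barcode, as deposited by the authors and not normalised by them. The lowest total per barcode in the files is 500 UMIs. The submitters' processing notes name GRCm38, mm10 and Seurat 4.3.0, with no role given. The sources used here do not give the aligner, strand setting or doublet treatment.

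The members and gene lists were chosen with earlier results of these data known. Nuclei with at least 300 genes and at most 10% mitochondrial UMIs were kept. Scrublet (through scanpy 1.11.5) called 3, 0, 0 and 0 doublets, under 0.5% per library, so it has not worked and doublets remain. Clustering used 2000 variable genes, 30 components, 15 neighbours and Leiden resolution 1, without the members. Clusters were named when at least 3 markers were among their 100 leading genes. The finer endothelial clusters (resolution 0.3) were made after seeing the data. UMI counts were summed per class and library. Levels are CPM of these sums, shown without trimmed-mean scaling. The main test was edgeR 4.0.16 (filterByExpr, TMM, glmQLFit with robust = TRUE, glmQLFTest), with Benjamini-Hochberg adjustment over all genes tested. The SE is the absolute log2 difference divided by the square root of F. DESeq2 1.42.0 was an alternative. With 2 libraries per label an exact permutation test cannot reach 0.05. Scripts were tested on simulated data.

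Named are all 10 members, Cavin1, up to 4 called genes per direction of each pathway list, and the 3 genes most alike. Gene coordinates are from GENCODE M21. Sema3a, Sema3d, Sema3e, Nrp1 and Nrp2 overlap other annotated genes, which the files also list, so reads there may have been shared out. Libraries come from separate mice per the titles. Samples with the same number correlated at -0.661 in their deviations from the label means (22267 genes), and no label states a pairing.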

Additional observations from a re-analysis of the deposited data

Results flagged for a closer look

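Several genes had both libraries labelled knockout above both labelled WT in one class and below both in another. These were flagged because every library of each label moved in opposite directions in the 2 classes. With 2 libraries per label, such a separation often arises without any label effect. How many of all genes show it was not counted. The differences between the classes were not tested, and each value below is the log2 label difference in the first class minus that in the second. Only classes with at least 50 UMIs of the gene and a fitted difference in both were considered. With 2 libraries per label, no group was large enough to look for a single outlying library.

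For Sema3a the value was 2.36 between progenitors and endothelial nuclei. For Sema3d it was 2.67 between cluster 3 and endothelial nuclei and 1.20 between cluster 3 and progenitors. The endothelial values of both genes moved with the share of lymphatic nuclei, as given above, and the part of that share in them was not tested. For Sema3e it was 2.39 between hormone-sensing luminal nuclei and progenitors and 3.21 between secretory luminal nuclei and progenitors. For Sema3c it was 2.35 between adipocytes and cycling nuclei, 2.29 between macrophages and cycling nuclei and 1.68 between macrophages and progenitors. The share of Pi16-type nuclei among progenitors also differed between the labels, and its part in the progenitor values was not tested. Within the Pi16-type and collagen-rich clusters Sema3c was at 0.12 and 0.53, no longer opposite to macrophages in sign. Sema3a was at -0.02 and 0.42 there, Sema3d at -0.50 and -0.42, and Sema3e at -1.47 and 0.09.

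For Sema3g the value was 0.54 between cluster 3 and adipocytes. For Nrp1, which was lower in T or NK nuclei of the libraries labelled knockout, it was 0.66 for cluster 3, 1.08 for cycling, 0.61 for dendritic, 1.24 for hormone-sensing luminal and 1.05 for endothelial nuclei, each against T or NK nuclei.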

How the results depend on the processing

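Over all nuclei 0 members were called under each of 10 alternatives, but signs were not stable. Leaving out 1 library moved Sema3a between -0.90 and 0.19 (the latter without WT 1), Sema3c between -1.0 and 0.37 (without knockout 1), Nrp1 between -0.47 (without knockout 2; -0.14 without WT 2) and 0.69, Nrp2 between -0.15 (without knockout 2; -0.06 without WT 1) and 0.17, and Plxnd1 between -0.22 (without knockout 2) and 0.48. Nrp2 was at -0.09 with at least 1000 UMIs and 500 genes. In adipocytes Nrp1 ran from -0.38 (without knockout 2) to 0.52.

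Within classes 2 pairs were called, and 0 with Leiden resolution 2. Without the lymphatic subcluster 0 were called too, but there Sema3d was below the filter on low counts and was not tested. Sema3a turned to 0.65 there. The count was 3 to 4 when single libraries were left out. The lone library of a label was then assumed to vary like the others. At resolution 2 Sema3d in endothelial nuclei was at -0.85 and Sema3a at -0.08, and the cause was not tested. In progenitors Sema3a turned to -0.02 in the Pi16-type cluster, Sema3c to 0.12 there and 0.53 in the collagen-rich cluster, and Sema3e to 0.09 in the latter.

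The replicate number as a block left 2 pairs called, with Sema3d at -2.52 and Sema3a at -1.74 in endothelial nuclei, and lowered the genes called over all nuclei from 29 to 4. The numbers share only a name. With crossed numbers as the block, 4 pairs and 39 genes over all nuclei were called.

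The count of members for the difference between adipocytes and progenitors was 0, and it became 3 with no low-count filter, 2 with DESeq2, 2 without the 5% highest doublet scores, and 1 with Leiden resolution 0.5, resolution 2, members kept in clustering or at least 1000 UMIs and 500 genes. It ran from 0 to 3 without single libraries. The count of 58 class differences stayed between 48 and 64. Endothelial subclusters of 72 and 156 nuclei, with as few as 5 in a library, limit what depth can show there.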
